A study of Mus musculus with 17 samples.

Results

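The collagen genes of mouse lung were described here in total RNA sequencing of 17 mice. The 43 collagens are the protein-coding genes of the deposited table whose symbol has the form Col, a type number, the letter a and a chain number, with at least 20 counts over all libraries, out of 31245 genes in the table. No gene of that form was lost to the count limit, since the smallest total was 49. They were sorted by textbook class into 11 fibrillar, 8 basement membrane and 24 other collagens. The mice were wild type (WT, Sv/129), PPARα null (KO) or humanized PPARα (KI), where PPARα is a nuclear receptor that binds fatty acids and PFOA is a perfluorinated acid that activates it. They drank 0.5% sucrose water (vehicle) or the same water with 6.2 µg/mL PFOA for 14 weeks, and all ate a custom diet that imitates the American diet from 6 weeks of age. There were 2 libraries of WT vehicle and 3 of each of WT PFOA, KO vehicle, KO PFOA, KI vehicle and KI PFOA. WT mice were bought, whereas KO and KI mice came from breeding pairs null for the mouse gene and heterozygous for the human one, so a difference of KO and KI from WT cannot be told apart from a difference of colony. All 6 KO mice were female, against 2 of 5 WT and 4 of 6 KI mice.

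Collagens are secreted trimers whose chains wind around each other in a triple helix, which needs a glycine to open every residue triplet. Fibrillar collagens, such as types I, III and V, assemble into the tensile fibers of the lung's airways, vessels and septa. Type IV collagens form the sheet-like network of basement membranes, and in the alveolus the basement membranes of epithelium and capillary are fused, with the α3, α4 and α5 chains of type IV collagen prominent there. The other collagens include the beaded filaments of type VI, the fibril-associated and transmembrane collagens, and the anchoring fibrils of type VII under airway epithelium. Fibroblasts, smooth muscle and pericytes make most fibrillar collagen, while endothelial and alveolar epithelial cells also make type IV.

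The difference between the classes is visible in the coding sequence. The stretches shown are 21 codons of the longest coding transcript in GENCODE M21 (GRCm38, the mm10 build), with the glycine codons that open a triplet of an unbroken run of at least 5 triplets in capitals. Col1a1 and Col5a3 are read from the start of their longest run, and Col4a1 across the first break of its helix.
Col1a1, codons 168 to 188: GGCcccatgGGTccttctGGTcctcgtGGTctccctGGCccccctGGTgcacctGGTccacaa
Col5a3, codons 478 to 498: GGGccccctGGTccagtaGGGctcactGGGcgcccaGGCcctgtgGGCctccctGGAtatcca
Col4a1, codons 154 to 174: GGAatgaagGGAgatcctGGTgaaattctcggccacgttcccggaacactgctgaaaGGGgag
Col1a1 and Col5a3 keep the triplet through all 7 glycine codons shown, and Col4a1 loses it after 3 and regains it later. Over the whole coding sequence the longest unbroken run was 337 triplets in Col5a3, 338 in Col1a1 and 344 in Col3a1, but 216 in Col24a1 and 217 in Col27a1. In the type IV chains the helix was split into 16 runs (Col4a1) to 24 runs (Col4a4), the longest of them 66 triplets in Col4a2.

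Some of the collagen genes lie side by side. Col4a4 (chr1:82448423-82586849, minus strand) and Col4a3 (chr1:82586921-82722059, plus strand) start head to head with 71 bases between them, and this stretch is shown because the levels of the pair are compared further on. It is given on the Col4a4 strand from RefSeq (GRCm38.p6), and on neither strand does it hold the nuclear receptor half-site AGGTCA, the TATA box TATAAA, the GC box GGGCGG or the CCAAT box.
Between Col4a4 and Col4a3, chr1:82586850-82586920: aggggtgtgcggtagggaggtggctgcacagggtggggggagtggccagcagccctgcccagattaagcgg
Col4a1 and Col4a2 on chromosome 8 also start head to head, with starts that overlap by 22 bases, and Col4a5 and Col4a6 on chromosome X start 1309 bases apart. All 43 genes had the same lower coordinate in the deposited table and in GENCODE M21, which for a gene on the minus strand is its end.

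The 17 libraries held 4116116 to 9237385 counts (median 7524817), so that 3 counts amounted to 0.325 to 0.729 CPM, the unit of the normalised read counts used here, which are scaled to a common library total with edgeR's TMM factors. The collagens took 0.333% to 0.565% of all counts. WT vehicle 122 and KO vehicle 137 stood apart, with 65.3% and 61.3% of counts on protein-coding genes against 74.5% to 80.4% in the other 15 libraries. Ppara, the gene removed in KO mice, was listed at 4.39 to 7.21 CPM in WT, 8.82 to 11.8 CPM in the libraries labelled KO and 9.08 to 20.4 CPM in KI. The KO label was thus not borne out by a lower level, the deleted part was not examined, and every direction given for KO rests on the label. Lung markers were present in every library, with Sftpc, a surfactant protein of alveolar type 2 cells, at 677 to 3501 CPM and Ager, of alveolar type 1 cells, at 435 to 1276 CPM. In whole lung, fewer cells of a type and less RNA per cell cannot be told apart.

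Basement membrane collagens were the most abundant class. Per length, as reads per kilobase of exon, that is, CPM divided by exon length in units of 1000 bases (RPKM), the 8 genes summed to 321 ± 55.1 RPKM (SD, n = 17), the 24 other collagens to 155 ± 15.2 RPKM and the 11 fibrillar collagens to 137 ± 25.4 RPKM. The order of other and fibrillar collagens depended on the length used. With the longest transcript in place of all exons, the mean sum was 213.4 for fibrillar and 189.4 for other collagens. Basement membrane collagens made up 44.2% to 58.2% of the summed collagen RPKM of a library, and fibrillar collagens 16.1% to 26.5%. The whole range from the highest to the lowest gene was wide, from Col4a1 at 128 ± 26.7 RPKM (SD, n = 17) to Col11a1 at 0.0484 ± 0.0554 RPKM. The values behind these sums are in CPM below, and the libraries of a group follow each other by animal number, so that WT vehicle is 107 and 122, WT PFOA 50, 56 and 65, KO vehicle 137, 145 and 149, KO PFOA 52, 154 and 155, KI vehicle 102, 116 and 135, and KI PFOA 57, 80 and 139.

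**Figure D1:**
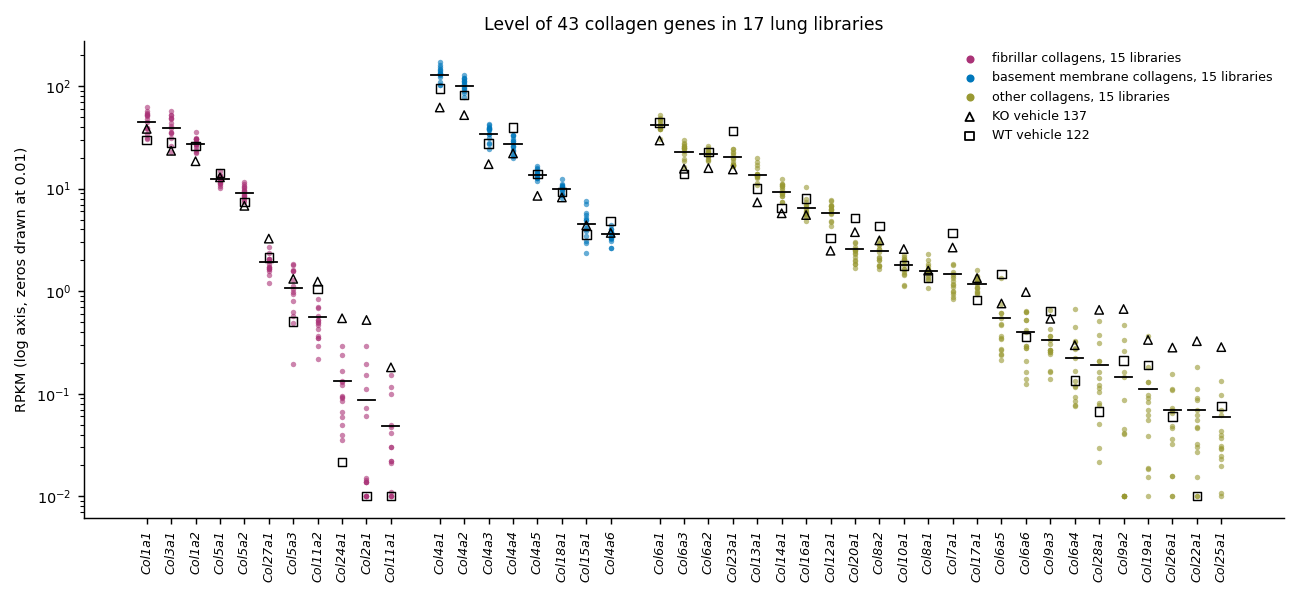
RPKM (log axis) of each collagen gene in each of the 17 libraries, ordered by mean level (black line) within the fibrillar, basement membrane and other classes, with KO vehicle 137 as triangles, WT vehicle 122 as squares and zeros drawn at 0.01. Col4a1 leads at a mean of 128 RPKM, and 9 of the 12 genes with a mean under 0.5 RPKM are highest in KO vehicle 137.

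Among the basement membrane collagens, Col4a1 and Col4a2, the chains of the type IV network found in all basement membranes, led the whole family. Col4a1 measured, in CPM, 1008 and 710.8 in WT vehicle, 1044, 1084 and 912 in WT PFOA, 462, 994 and 976 in KO vehicle, 1062, 1158 and 982 in KO PFOA, 770.1, 948 and 826 in KI vehicle, and 1270, 1206 and 767 in KI PFOA. Its partner Col4a2 measured, in CPM, 749 and 544 in WT vehicle, 793, 735 and 621 in WT PFOA, 345, 696 and 700.8 in KO vehicle, 732, 773 and 655 in KO PFOA, 564, 641 and 598 in KI vehicle, and 841, 791 and 523 in KI PFOA. Both were lowest in KO vehicle 137, with WT vehicle 122, KI vehicle 102 and KI PFOA 139 also low, and both were highest in KI PFOA 57. Col4a3, a chain of the specialised alveolar network, measured, in CPM, 418 and 274 in WT vehicle, 389.5, 425 and 307 in WT PFOA, 173, 372 and 339.5 in KO vehicle, 380, 392 and 337 in KO PFOA, 274, 379 and 240.3 in KI vehicle, and 399, 382 and 278 in KI PFOA. It was also lowest in KO vehicle 137, and the WT and KO libraries overlapped. Col4a4 (27.3 RPKM), Col4a5 (13.7 RPKM) and Col18a1 (9.88 RPKM), whose C-terminal fragment is endostatin, came next, followed by Col15a1 (4.56 RPKM), and Col4a6 was the lowest of the class at 3.58 RPKM.

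Among the fibrillar collagens, Col1a1 and Col1a2, which form type I collagen, and Col3a1, which mixes with it in pliable tissues, were far above the rest. Col1a1 measured, in CPM, 291 and 196 in WT vehicle, 204, 250.3 and 198 in WT PFOA, 251, 313 and 344 in KO vehicle, 354, 362 and 378 in KO PFOA, 257, 226 and 258 in KI vehicle, and 408, 335 and 345 in KI PFOA. Its 3 KO PFOA and 3 KI PFOA libraries all lay above every WT library. Col3a1 measured, in CPM, 342 and 276 in WT vehicle, 223, 350.3 and 255 in WT PFOA, 229, 426 and 508 in KO vehicle, 511, 477 and 564 in KO PFOA, 403, 308 and 344 in KI vehicle, and 483, 467 and 387 in KI PFOA. Except for KO vehicle 137, every KO library was above every WT library. Col1a2 measured, in CPM, 345 and 326 in WT vehicle, 283, 360.2 and 277 in WT PFOA, 229.9, 379 and 386 in KO vehicle, 377, 337 and 379 in KO PFOA, 376, 295 and 319.6 in KI vehicle, and 442, 332 and 337 in KI PFOA, and its genotypes overlapped throughout. Col5a1 (12.4 RPKM) and Col5a2 (9.09 RPKM), which help to start fibrils, were intermediate, Col27a1 and Col5a3 were near 1 to 2 RPKM (1.95 and 1.08 RPKM), and Col11a2, Col24a1, Col2a1 and Col11a1, known chiefly from cartilage except for Col24a1, were at 0.563 RPKM or below.

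Among the other collagens, the type VI chains Col6a1, Col6a3 and Col6a2, which form beaded filaments around cells, ranked highest. Col6a1 measured, in CPM, 227 and 193 in WT vehicle, 215, 208 and 175 in WT PFOA, 129, 174 and 181 in KO vehicle, 189, 187 and 174 in KO PFOA, 134, 166 and 167 in KI vehicle, and 202, 207 and 166 in KI PFOA. It was highest in WT vehicle 107 and lowest in KO vehicle 137. Col6a3 measured, in CPM, 300 and 166 in WT vehicle, 221, 263 and 196 in WT PFOA, 187, 299 and 332 in KO vehicle, 305, 313 and 353 in KO PFOA, 235, 278 and 299.6 in KI vehicle, and 289.6, 325 and 313 in KI PFOA, and Col6a2 measured, in CPM, 217 and 189.8 in WT vehicle, 180.1, 197 and 154.3 in WT PFOA, 132, 171 and 188 in KO vehicle, 188, 177 and 206 in KO PFOA, 163, 158 and 174 in KI vehicle, and 174, 195 and 185 in KI PFOA. Col6a3 was lowest in WT vehicle 122, with KO vehicle 137 next, and Col6a2 was lowest in KO vehicle 137. Col23a1 (20.2 RPKM) and Col13a1 (13.6 RPKM), transmembrane collagens, came next, then Col14a1 (9.26 RPKM), Col16a1 (6.49 RPKM) and Col12a1 (5.80 RPKM), which associate with fibrils. The lowest of the class was Col25a1 at 0.0593 RPKM.

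**Figure D2:**
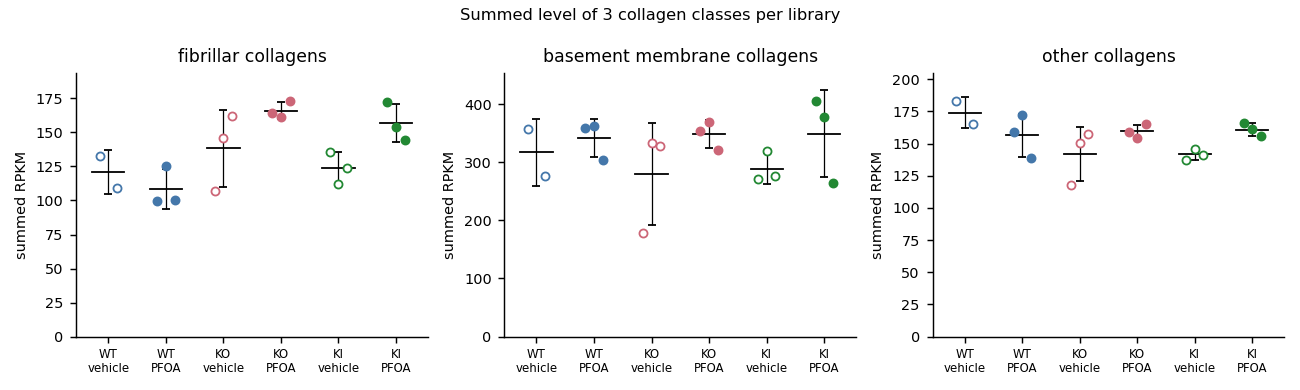
Summed RPKM of the fibrillar, basement membrane and other collagens in each library by group, with open points for vehicle, filled points for PFOA, and the mean ± SD of each group. The 3 KO PFOA libraries (161 to 173 RPKM) and 3 KI PFOA libraries (144 to 172 RPKM) lie above all 5 WT libraries (99.4 to 132 RPKM) for fibrillar collagens, while vehicle and PFOA overlap within each genotype for basement membrane collagens. For fibrillar and other collagens, PFOA lies above vehicle in KI and overlaps with it in WT and KO.

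The class sums were a description without a test. The fibrillar sum was 121 ± 16.3 RPKM in WT vehicle (n = 2), 108 ± 14.7 in WT PFOA, 138 ± 28.4 in KO vehicle, 166 ± 6.15 in KO PFOA, 124 ± 11.7 in KI vehicle and 157 ± 14.1 in KI PFOA (n = 3 each). The KO PFOA and KI PFOA ranges lay above the WT range, and the vehicle groups overlapped with it. Within KI, the PFOA range (144 to 172 RPKM) lay above the vehicle range (112 to 135 RPKM), whereas vehicle and PFOA overlapped within WT and within KO. The basement membrane sum was 317 ± 58.1 RPKM in WT vehicle, 342 ± 32.5 in WT PFOA, 280 ± 87.7 in KO vehicle, 348 ± 23.9 in KO PFOA, 289 ± 26.2 in KI vehicle and 349 ± 74.4 in KI PFOA. The KI vehicle range (272 to 319 RPKM) lay just below the KO PFOA range (322 to 369 RPKM), and the vehicle and PFOA groups of each genotype overlapped. KO vehicle 137 was at 178 RPKM and the other KO vehicle libraries at 332 and 328 RPKM. For the class of other collagens, the sum was 137.5 to 146 RPKM in KI vehicle and 156 to 166 RPKM in KI PFOA. In that class vehicle and PFOA overlapped within WT and within KO. Markers of fibroblasts, the main source of fibrillar collagen, overlapped among the genotypes. Their 10 genes, none at 0 in any library, summed to 1180 to 2352 CPM in WT, 778 to 2110 CPM in KO and 1509 to 1999 CPM in KI.

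The first question of the design was whether PFOA changed the collagens in any genotype. A gene was called where its fold exceeded 2 and its adjusted p in edgeR's quasi-likelihood test over 26946 genes stayed under 0.2. By this rule 0 collagens were called for PFOA against vehicle in WT, in KO, in KI or over the 3 genotypes, and the share of all genes called was 0% in each. DESeq2 also called 0 collagens in these 4 comparisons, while it called 24, 68, 1 and 26 genes in all. At an unadjusted p under 0.05, edgeR found 4 collagens in WT, 0 in KO, 2 in KI and 4 over the 3 genotypes, beside 7.35%, 9.79%, 2.59% and 8.27% of all genes. These counts moved with single libraries. In WT there was 1 such collagen without WT vehicle 122 or without WT PFOA 50, and 7 without WT vehicle 107. Leaving out 1 library at a time gave 0 to 4 in KO, 1 to 5 in KI and 1 to 9 over the 3 genotypes, with the 9 without WT vehicle 107 and 1 without WT vehicle 122. For the 31 collagens with a mean of at least 0.5 RPKM, the 95% interval of the PFOA effect over the 3 genotypes lay within a 2-fold change either way for all 31, and for 25 in WT, 27 in KO and 26 in KI.

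**Figure D3:**
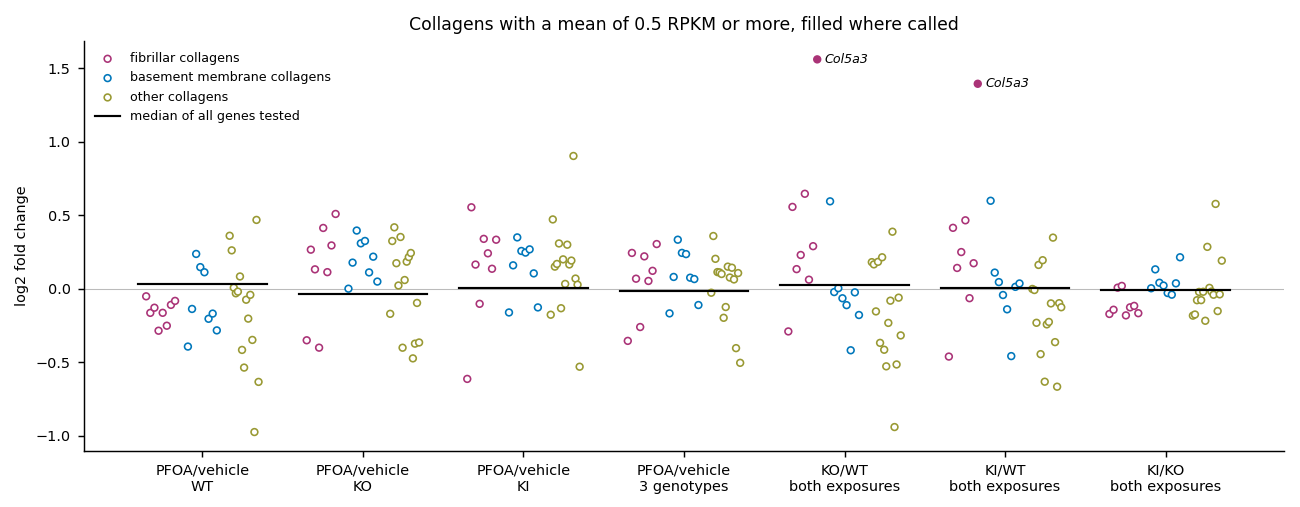
Log2 fold changes of the 31 collagens with a mean of at least 0.5 RPKM in 7 comparisons, coloured by class, filled where called (adjusted p under 0.2 and fold over 2), with the median of all 26946 genes as a black line. Col5a3 is the only filled point, in KO against WT (1.56) and KI against WT (1.40), and no point of the PFOA comparisons is filled.

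In WT lungs the 4 collagens with an unadjusted p under 0.05 were all other collagens and lower with PFOA. Col23a1 had the smallest p, with a log2 fold change of -0.54 (SE 0.19, unadjusted p = 0.0128, adjusted p = 0.548), and it measured, in CPM, 130.4 and 209.6 in WT vehicle, 98.3, 139.9 and 114 in WT PFOA, 88.2, 97.4 and 95.9 in KO vehicle, 101, 97.1 and 95.7 in KO PFOA, 121, 128 and 97.9 in KI vehicle, and 138.7, 105 and 112 in KI PFOA. WT vehicle 122 was the highest of all libraries, and the other WT vehicle library lay within the WT PFOA range. Col7a1, the anchoring fibril collagen, changed by -0.97 (SE 0.39, unadjusted p = 0.0216, adjusted p = 0.586), with 18.5 and 38.0 CPM in WT vehicle against 15.1, 18.9 and 9.12 CPM in WT PFOA. Col8a2, a short-chain network collagen, changed by -0.63 (SE 0.27, unadjusted p = 0.0326, adjusted p = 0.625), and the sparse Col19a1 by -2.91 (SE 1.26, unadjusted p = 0.0332, adjusted p = 0.628). The median of the 43 collagens in WT was -0.11, beside 0.04 for all genes. Without WT vehicle 107, which leaves 122 as the only WT vehicle library and takes its spread from the other groups, Col7a1 and Col19a1 were called along with 1672 genes in all (adjusted p = 0.117 and 0.185). Without 122, 0 collagens were called, and the log2 fold changes were -0.15 for Col23a1 (adjusted p = 1), -0.36 for Col7a1 and -0.22 for Col8a2.

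Airway markers had lower values in the same comparison. Of the 9 airway epithelial markers, which include Scgb1a1 and the basal cell keratins, 5 had an unadjusted p under 0.05 in WT, all lower with PFOA, beside 7.35% of all genes, and the median log2 fold change of the list was -1. Of the 10 smooth muscle and pericyte markers 4 did, all lower, with a median of -0.63. Without WT vehicle 122 it was 0 in both lists, with medians of -0.41 and -0.20. Type VII collagen anchors airway epithelium, and whether the share of airway tissue in a sample moved with it was not tested.

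In KO lungs no collagen had an unadjusted p under 0.05 with all libraries, whereas 4 did without KO vehicle 149 and 2 without KO vehicle 145. The smallest p values were those of Col22a1, a sparse collagen of tissue junctions (-2.31, SE 1.23, unadjusted p = 0.0749, adjusted p = 0.538, at most 13 counts in a KO library), Col5a2 (0.30, SE 0.16, unadjusted p = 0.0770, adjusted p = 0.540) and Col13a1 (0.42, SE 0.23, unadjusted p = 0.0879, adjusted p = 0.551). All 8 basement membrane collagens had a positive log2 fold change, from 0.00 to 0.40 (median 0.20), and KO vehicle 137, the lowest library for Col4a1, Col4a2 and Col4a3, is 1 of the 3 libraries they were set against. Without it 7 of the 8 were positive, from -0.09 to 0.15 (median 0.05). The median of the 43 collagens was 0.06 beside -0.03 for all genes, and with upper-quartile factors it was -0.07 beside -0.14.

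In KI lungs Col1a1 had the smallest p among the collagens. It measured 257, 226 and 258 CPM in KI vehicle and 408, 335 and 345 CPM in KI PFOA, so the groups did not overlap, and its log2 fold change was 0.55 (SE 0.17, unadjusted p = 0.00370, adjusted p = 1). The fold change was 1.47 and the 95% interval of the log2 value 0.20 to 0.91, short of the 2-fold limit and not past the adjusted threshold. Over the alternatives its log2 fold change ran from 0.46 to 0.61. Col1a1 had been singled out on these same libraries, so its value is not independent of that choice. Col8a2 was lower, with 13.4, 14.5 and 12.7 CPM in KI vehicle and 9.36, 7.84 and 10.9 CPM in KI PFOA, again without overlap (-0.53, SE 0.25, unadjusted p = 0.0468, adjusted p = 1). Col6a1 differed by 0.30 (SE 0.15, unadjusted p = 0.0680, adjusted p = 1), with overlap. Vehicle and PFOA libraries of KI also did not overlap for Col5a1, Col6a2, Col12a1 and Col16a1, higher with PFOA, and for Col11a2, lower. Col1a1 did not overlap in KO either, at 251 to 344 CPM in KO vehicle and 354 to 378 CPM in KO PFOA. The share of all genes without such overlap within a genotype was not counted. The fibroblast markers summed to 1618 to 1983 CPM in KI vehicle and 1509 to 1999 CPM in KI PFOA.

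Over the 3 genotypes, Col8a2 had the smallest p, at -0.50 (SE 0.14, unadjusted p = 0.00220, adjusted p = 0.436). It measured, in CPM, 11.6 and 19.3 in WT vehicle, 8.997, 13.01 and 7.84 in WT PFOA, 14.1, 11.7 and 8.16 in KO vehicle, 9.04, 7.35 and 9.72 in KO PFOA, 13.4, 14.5 and 12.7 in KI vehicle, and 9.36, 7.84 and 10.9 in KI PFOA, lower on average with PFOA in each genotype but with overlap in WT and KO. Without WT vehicle 122 the log2 fold change was -0.40 (adjusted p = 0.811). Type VIII collagen is a trimer of Col8a1 and Col8a2 chains found around vessels, and the RPKM ratio of Col8a1 to Col8a2 was 0.316 to 0.766 in the 8 vehicle libraries and 0.657 to 0.949 in the 9 PFOA libraries. Col4a1 differed by 0.33 (SE 0.14, unadjusted p = 0.0287, adjusted p = 0.552) and Col12a1, which coats fibrils, by 0.36 (SE 0.16, unadjusted p = 0.0368, adjusted p = 0.576). Both were lowest in KO vehicle 137, a vehicle library, and without 122 and 137 together the log2 fold changes were 0.19 for Col4a1 and 0.16 for Col12a1. Col1a1 differed by 0.24 (SE 0.11, unadjusted p = 0.0430, adjusted p = 0.591). The median of the 43 collagens was 0.07 beside -0.01 for all genes.

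The PFOA effect was then compared between genotypes, which asks whether the form of PPARα alters it. No collagen was called with edgeR or DESeq2, against 0% of all genes with edgeR, and 1 collagen for KO against WT and 4 for KI against WT had an unadjusted p under 0.05, beside 7.46% and 4.58% of all genes. Leaving out 1 library at a time gave 0 to 4 and 1 to 8 such collagens. For KO against WT the smallest p values were those of Col23a1 (0.60, SE 0.26, unadjusted p = 0.0360, adjusted p = 0.669), Col5a1 (0.36, SE 0.19, unadjusted p = 0.0665, adjusted p = 0.675) and Col6a2 (0.42, SE 0.22, unadjusted p = 0.0696, adjusted p = 0.675). For KI against WT they were those of Col1a1 (0.72, SE 0.25, unadjusted p = 0.00976, adjusted p = 0.999), Col5a1 (0.49, SE 0.19, unadjusted p = 0.0165, adjusted p = 0.999) and Col23a1 (0.57, SE 0.26, unadjusted p = 0.0436, adjusted p = 0.999). Col5a1, the main chain of type V collagen, measured, in CPM, 113 and 120.1 in WT vehicle, 101, 103 and 90.7 in WT PFOA, 109, 96.8 and 111 in KO vehicle, 101.8, 127 and 114 in KO PFOA, 96.5, 85.8 and 95.04 in KI vehicle, and 102.4, 117 and 109 in KI PFOA. All 3 WT PFOA libraries lay below both WT vehicle libraries, and all 3 KI PFOA libraries lay above the 3 KI vehicle libraries. How many of all genes separate in this way within a genotype was not counted.

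The second question was how the genotypes differ, with exposure as a term. In KO against WT 2 of 43 collagens were called, both higher, beside 2.36% of all genes (637, of which 469 were higher). In KI against WT 1 was called, higher, beside 1.37% of all genes (368). At an unadjusted p under 0.05 there were 14 collagens in KO (12.9% of all genes) and 10 in KI (9.65%), and 9 to 16 and 8 to 13 when 1 library at a time was left out. In KI against KO 0 were called with edgeR or DESeq2, beside 0.00742% of all genes, and 1 collagen had an unadjusted p under 0.05, beside 4.78%, or 0 to 3 with 1 library left out. Cardiac muscle markers were higher in KI, with 4 of 8 at an unadjusted p under 0.05 against WT (median log2 fold change 1.60) and 7 of 8 against KO (median 1.85), none called, and their part in the KI values was not tested. Col5a3 was the collagen called in both comparisons with WT, and Col6a4 was called in KO only. These 2 comparisons share the 5 WT libraries.

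Col5a3, a minor chain of type V collagen, lies at chr9:20770050-20815067 on the minus strand. It measured, in CPM, 3.33 and 3.44 in WT vehicle, 3.93, 1.32 and 4.24 in WT PFOA, 8.98, 7.18 and 7.66 in KO vehicle, 12.6, 12.4 and 8.67 in KO PFOA, 10.8, 6.36 and 5.48 in KI vehicle, and 10.6, 11.1 and 6.71 in KI PFOA. Every KO and KI library was above every WT library, and among the 43 collagens it was the only one whose KO and KI libraries did not overlap with WT, beside 0.931% of all genes. The counts behind this were 9 to 33 in WT, 39 to 116 in KO and 39 to 93 in KI. Its level was 2.95-fold higher in KO than in WT, with a log2 fold change of 1.56 (SE 0.26, adjusted p = 0.00177), and 2.63-fold higher in KI, at 1.40 (SE 0.26, adjusted p = 0.00620). KI and KO did not differ beyond their spread (-0.17, SE 0.23, unadjusted p = 0.470, adjusted p = 0.9997, 95% interval -0.63 to 0.30). Over all alternatives the log2 fold change was 1.35 to 1.96 in KO and 1.18 to 1.69 in KI, and the call held in each. Among females the 2 WT values were 3.33 and 3.93 CPM, those of the 6 KO mice 7.18 to 12.6 CPM, and those of the 4 KI mice 5.48 to 11.1 CPM.

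Col5a3 was then set against its fibril partner Col5a1, whose mean was 105.5 CPM in WT, 110 CPM in KO and 100.8 CPM in KI. With Col5a1 this even, the ratio largely restates the Col5a3 values. The RPKM ratio of Col5a3 to Col5a1 was 0.0160 to 0.0583 in WT, 0.0862 to 0.155 in KO and 0.0719 to 0.140 in KI, so that Col5a1 was the more abundant chain in all 17 libraries. The upstream sequence of Col5a3 is shown because it is the collagen called in both comparisons with WT. It covers the 250 bases before its RefSeq start, with the CCAAT box and the GC boxes (GGGCGG, here read on the opposite strand) in capitals.
Col5a3 upstream, chr9:20815068-20815317, minus strand, GRCm38.p6: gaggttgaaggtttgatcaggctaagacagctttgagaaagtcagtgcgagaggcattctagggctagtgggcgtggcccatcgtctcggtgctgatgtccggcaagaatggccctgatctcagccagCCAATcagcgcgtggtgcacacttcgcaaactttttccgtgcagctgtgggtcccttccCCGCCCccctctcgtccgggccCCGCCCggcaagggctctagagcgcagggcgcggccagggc
It holds 2 GC boxes and 1 CCAAT box, and no match on either strand to TATAAA or to AGGTCA, the half-site of PPAR and its partner RXR. Over the 36 upstream windows of 34 collagen genes in RefSeq, AGGTCA was present in 19.4% (14.0% of all 32851 windows), GGGCGG in 61.1% (32.7%), CCAAT in 33.3% (33.8%) and TATAAA in 13.9% (12.4%). These matches are letters and not measured binding.

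Col6a4, a type VI chain expressed at low level, lies at chr9:105989454-106096783 on the minus strand. Its counts were 5 and 7 in WT vehicle, 8, 5 and 5 in WT PFOA, 11, 7 and 15 in KO vehicle, 18, 22 and 38 in KO PFOA, 17, 9 and 20 in KI vehicle, and 7, 11 and 27 in KI PFOA, which is, in CPM, 0.666 and 1.15 in WT vehicle, 1.01, 0.731 and 0.643 in WT PFOA, 2.53, 0.985 and 1.88 in KO vehicle, 2.39, 2.34 and 5.68 in KO PFOA, 2.71, 1.15 and 2.81 in KI vehicle, and 0.799, 1.41 and 3.77 in KI PFOA. The WT libraries were all at 1.15 CPM or below, but KO vehicle 145, KI vehicle 116 and KI PFOA 57 were at or below that level too, and KO PFOA 155 was the highest library. Its log2 fold change was 1.63 (SE 0.47, adjusted p = 0.0828) in KO against WT and 1.34 (SE 0.47, adjusted p = 0.262) in KI against WT. The KO call was lost without KO PFOA 155 (1.26, adjusted p = 0.234), with sex as a covariate (1.49, adjusted p = 0.288) and with the index number as a covariate (0.99, adjusted p = 0.637). The index number was read from the column name of a library, and the labels do not say what it stands for. In KI Col6a4 was called without KI PFOA 57 (1.56, adjusted p = 0.116). Exons of Gm36993 and of the antisense gene Gm47575 overlap it on the other strand. Gm36993 had 13 counts over the 17 libraries, the deposited table has no gene named Gm47575, and how the counting used the strand is not stated.

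**Figure D4:**
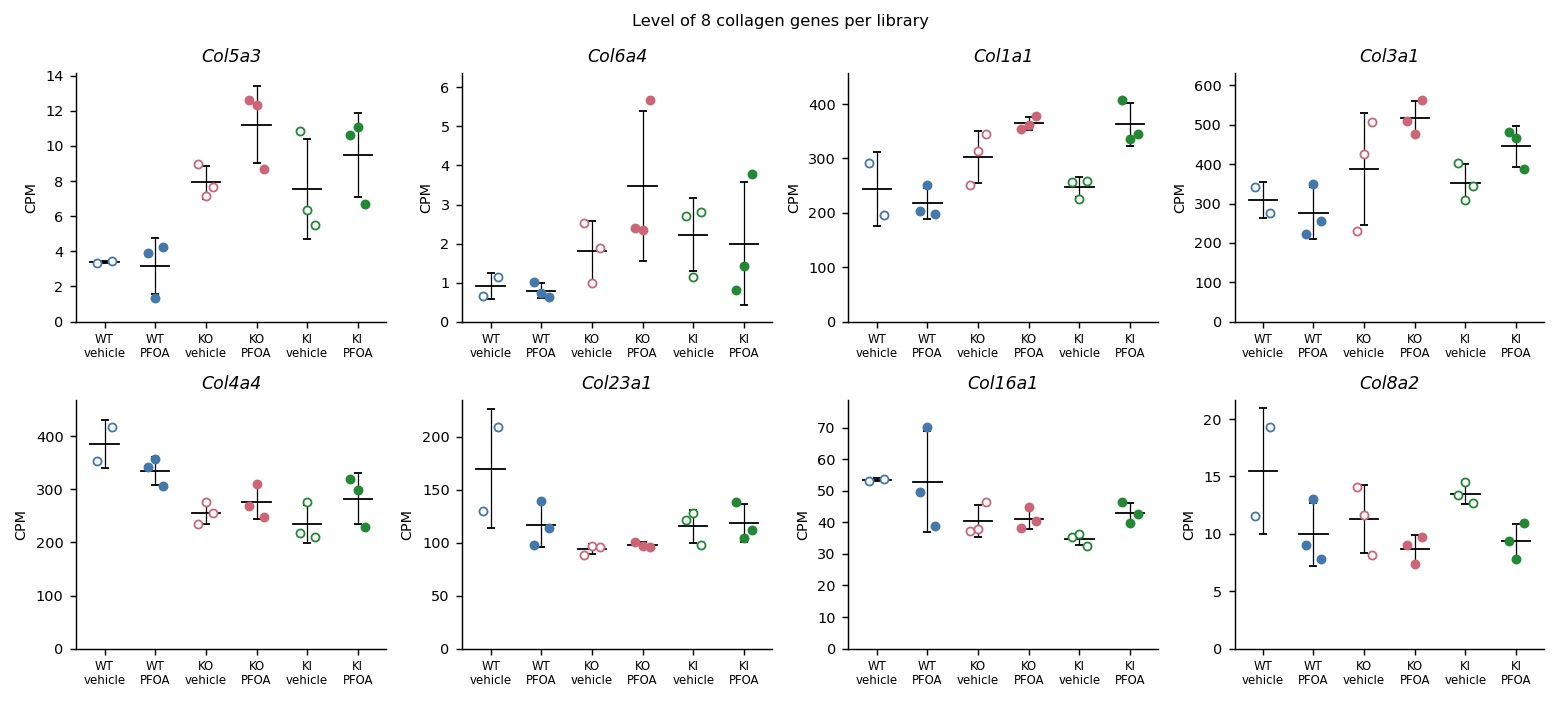
CPM of Col5a3, Col6a4, Col1a1, Col3a1, Col4a4, Col23a1, Col16a1 and Col8a2 in each library by group, with open points for vehicle, filled points for PFOA, and the mean ± SD of each group. Col5a3 shows all 12 KO and KI libraries above the 5 WT libraries, and the other 7 genes show overlap.

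Below the 2-fold limit, Col1a1 and Col3a1 were higher in KO. Of the 11 fibrillar collagens 10 had a positive log2 fold change in KO against WT and 9 in KI against WT, with medians of 0.55 and 0.42, beside 0.02 and 0.01 for all genes. The KO median was 0.30 without WT vehicle 122 and 0.38 without KO vehicle 137. Without both libraries the medians were 0.24 in KO and 0.34 in KI, with 9 and 10 of the 11 positive. These medians and sign counts weigh each gene alike, sparse ones included. Col2a1, Col11a1 and Col24a1 had 3 or fewer counts in 10, 10 and 4 of the 17 libraries, and each was highest in KO vehicle 137. Col1a1 was higher by 0.56 (SE 0.14, adjusted p = 0.0442) in KO, with a mean of 334 ± 45.8 CPM (SD, n = 6) against 228 ± 41.8 CPM in WT (n = 5), and by 0.42 (SE 0.14, adjusted p = 0.238) in KI. With a limit of an adjusted p under 0.05 and no fold limit, Col1a1 and Col5a3 were the 2 collagens called in KO against WT, while the adjusted p of Col1a1 over the alternatives ran from 0.00222 to 0.174. Col3a1 was higher by 0.65 (SE 0.18, adjusted p = 0.0672) in KO and by 0.47 (SE 0.18, adjusted p = 0.327) in KI. Col5a2 differed by 0.29 (SE 0.12, adjusted p = 0.283) in KO, and Col27a1 by 0.23 (SE 0.18, adjusted p = 0.651). The fibroblast marker sum had medians of 2208 CPM in WT, 1853 CPM in KO and 1816 CPM in KI.

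Several other and basement membrane collagens lay on the opposite side. Col4a4 differed by -0.42 (SE 0.12, adjusted p = 0.0950) in KO and by -0.46 (SE 0.12, adjusted p = 0.0874) in KI, and measured, in CPM, 354 and 418 in WT vehicle, 342, 357 and 306 in WT PFOA, 234, 276 and 256 in KO vehicle, 268, 311 and 248 in KO PFOA, 219, 276 and 209.6 in KI vehicle, and 321, 299 and 228 in KI PFOA. The WT values ran from 306 to 418 CPM, the KO values from 234 to 311 CPM and the KI values from 209.6 to 321 CPM, so WT overlapped with both only at its lowest library, WT PFOA 65. Col23a1 differed by -0.53 (SE 0.14, adjusted p = 0.0620) in KO and by -0.24 (SE 0.14, adjusted p = 0.671) in KI, and without WT vehicle 122 by -0.32 in KO (adjusted p = 0.244). Col16a1 differed by -0.37 (SE 0.13, adjusted p = 0.175) and -0.44 (SE 0.13, adjusted p = 0.122), and Col20a1 by -0.41 (SE 0.19, adjusted p = 0.361) and -0.63 (SE 0.19, adjusted p = 0.159). Both of these fibril-associated collagens fell short of a 2-fold difference. Col15a1, a basement membrane collagen of vessels and muscle, was higher by 0.60 (SE 0.20, adjusted p = 0.148) in KO and 0.60 (SE 0.20, adjusted p = 0.213) in KI. Between KI and KO the smallest p values were those of Col23a1 (0.29, SE 0.14, unadjusted p = 0.0498, adjusted p = 0.9997), Col4a6 (0.21, SE 0.13, unadjusted p = 0.109, adjusted p = 0.9997) and Col6a5 (0.58, SE 0.44, unadjusted p = 0.201, adjusted p = 0.9997).

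Partner chains were compared as RPKM ratios within a library, with no test. Col4a1 to Col4a2 stayed at 1.16 to 1.35 over the 17 libraries, although both genes varied by more than 2-fold in level. Within that range KO PFOA (1.29 to 1.33) lay above KO vehicle (1.19 to 1.27), and vehicle and PFOA overlapped in WT and in KI. Col1a1 to Col1a2, which enter type I collagen in unequal number, was 1.14 to 1.60 in WT, 1.56 to 2.07 in KO, 1.29 to 1.53 in KI vehicle and 1.75 to 1.94 in KI PFOA. The KI PFOA libraries lay above the KI vehicle libraries without overlap. The size of this ratio rests on the exon length used. Col1a2 has 12426 bases of union exon but 5348 in its longest transcript, and Col1a1 6563 and 5930. With the longest transcripts every ratio would be lower and the order of the libraries the same. The ratio therefore cannot be set against the number of chains in the trimer. Col4a4 to Col4a3, the head-to-head pair, was 0.790 to 0.935 in WT and 0.663 to 0.819 in KO and KI, apart from WT vehicle 122 at 1.44 and KO vehicle 137 at 1.27. The ratios of Col5a1 to Col5a2 (1.03 to 1.92) and Col6a1 to Col6a2 (1.57 to 2.27) overlapped among the genotypes.

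**Figure D5:**
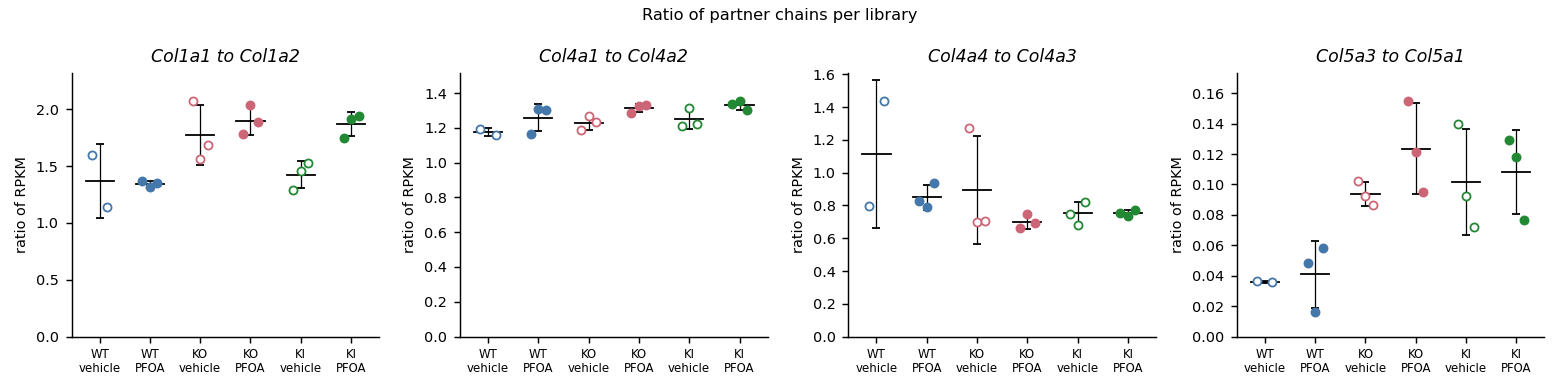
RPKM ratio of Col1a1 to Col1a2, Col4a1 to Col4a2, Col4a4 to Col4a3 and Col5a3 to Col5a1 in each library by group, with open points for vehicle, filled points for PFOA, and the mean ± SD of each group. Col4a1 to Col4a2 stays between 1.16 and 1.35, the KO and KI points of Col5a3 to Col5a1 lie above the WT points, and the 2 high points of Col4a4 to Col4a3 are WT vehicle 122 and KO vehicle 137.

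Several low-level collagens were high in single libraries. Of the 12 collagens with a mean under 0.5 RPKM, 9 were highest in KO vehicle 137, beside 25.7% of all genes tested, and of the 31 above it 12 were lowest there, beside 21.96%. Both shares are over genes of every level, and the share among genes as sparse as these collagens was not examined. KO vehicle 137 had the fewest counts (4116116) yet counts on the most genes (29747, followed by 27504 in KI PFOA 57). Col2a1, the main collagen of cartilage, measured, in CPM, 0.133 and 0 in WT vehicle, 0.127, 0 and 1.41 in WT PFOA, 4.84, 0.141 and 0 in KO vehicle, 0.664, 0 and 1.79 in KO PFOA, 2.71, 0.127 and 0.562 in KI vehicle, and 1.03, 0.129 and 0 in KI PFOA. Col11a1, its fibril partner, measured, in CPM, 0.266 and 0 in WT vehicle, 0, 0 and 1.93 in WT PFOA, 2.30, 0.281 and 0.628 in KO vehicle, 0.532, 0 and 0.598 in KO PFOA, 1.27, 0.382 and 0.281 in KI vehicle, and 1.48, 0.385 and 0.140 in KI PFOA, and Col9a2, which decorates the same fibrils, 0 and 0.655 in WT vehicle, 0, 0 and 1.03 in WT PFOA, 2.07, 0 and 0.126 in KO vehicle, 0.266, 0 and 0.449 in KO PFOA, 1.43, 0.509 and 0 in KI vehicle, and 0.799, 0.129 and 0.140 in KI PFOA. All 3 were at 1.03 CPM or more in WT PFOA 65, KO vehicle 137 and KI vehicle 102 and below that level in the other libraries, except for Col2a1 in KO PFOA 155 (1.79 CPM) and KI PFOA 57 (1.03 CPM) and Col11a1 in KI PFOA 57 (1.48 CPM). Acan, the large proteoglycan of cartilage, was at 4.37 CPM in WT PFOA 65, 6.45 CPM in KO vehicle 137, 8.12 CPM in KI vehicle 102 and 3.996 CPM in KI PFOA 57, and at 2.26 CPM or below in the others. The 8 cartilage markers that could be tested summed to 16.95 to 51.6 CPM and followed Acan only in part. Their sum was 39.3 CPM in WT PFOA 65, 45.4 CPM in KO vehicle 137, 51.6 CPM in KI vehicle 102 and 49.55 CPM in KI PFOA 57. It was also 43.9 CPM in WT vehicle 122, where Acan was at 0.328 CPM, and 36.9 CPM in KI PFOA 139, where Acan was at 0. The cardiac muscle markers ranged from 325 to 7866 CPM, and whether airway cartilage or other tissue carried along set these values was not tested.

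The enzymes and partners that make, cut and bind collagen were read from lists. For PFOA over the 3 genotypes and for KO and KI against WT, 0 members of the lists were called with edgeR, beside 0%, 2.36% and 1.37% of all genes. At an unadjusted p under 0.05, 2 of 18 modification and folding genes, 1 of 7 procollagen processing genes, 0 of 5 cross-linking enzymes, 3 of 11 degradation genes, 1 of 10 receptors and 0 of 8 fibril-organising proteoglycans differed with PFOA over the 3 genotypes, all higher, beside 8.27% of all genes. P3h3, a prolyl 3-hydroxylase, led the first list at 0.25 (SE 0.09, adjusted p = 0.485), Pcolce, an enhancer of procollagen cleavage, the second at 0.26 (SE 0.11, adjusted p = 0.567), and Lox, the lysyl oxidase, the third at 0.56 (SE 0.27, adjusted p = 0.615). Mmp9, a gelatinase of neutrophils and macrophages, had 0.83 (SE 0.30, adjusted p = 0.485), with 2.76 to 4.08 CPM in KO vehicle and 9.04 to 10.5 CPM in KO PFOA. In WT it overlapped, at 0.799 to 5.08 CPM in vehicle and 2.19 to 4.63 CPM in PFOA. It also overlapped in KI, at 1.78 to 4.62 CPM and 2.74 to 5.45 CPM. Lair1, a collagen receptor of leukocytes, had 0.82 (SE 0.20, adjusted p = 0.394), with 3.06 to 4.62 CPM in KI vehicle and 7.88 to 13.8 CPM in KI PFOA. In KO it was at 6.22 to 7.66 CPM in vehicle and 9.72 to 9.90 CPM in PFOA. In WT it overlapped, at 1.47 to 5.46 CPM and 4.94 to 5.91 CPM. Prelp, a small leucine-rich proteoglycan, had 0.35 (SE 0.19, adjusted p = 0.650).

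Markers of the cell types of lung and of tissue that can be carried along with it were read in the same comparison, and 0 of them were called with edgeR. Among the markers with the smallest p of each list, Vwf of endothelial cells had a log2 fold change of 0.44 (adjusted p = 0.436), Pdpn of alveolar type 1 cells 0.54 (adjusted p = 0.514) and Foxj1 of ciliated airway cells -0.58 (adjusted p = 0.468). Fgfr4 of the fibroblast list had -0.28 (adjusted p = 0.535), and 1 of the 10 fibroblast markers had an unadjusted p under 0.05. Of the 9 airway markers 4 did, all lower, with a median of -0.49, beside 8.27% of all genes, and 3 did without WT vehicle 122. The other lists were led by Synpo2 of smooth muscle (-0.28), Slc34a2 of alveolar type 2 cells (0.35), Upk3b of mesothelium (0.45), Cytl1 of cartilage (0.52), Nppa of cardiac muscle (-1.53), Myh4 of skeletal muscle (1.93) and Mal of Schwann cells (0.23), at adjusted p from 0.475 to 0.833. Whether cell makeup moved with any collagen level was not tested.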

How the data were processed

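Total RNA of frozen lung from 17 mice was sequenced with a stranded pico-input kit. The authors trimmed reads from the 3′ end below a phred score of 20, used STAR 2.6 within Partek Flow for alignment to mm10, and deposited estimated counts per gene, obtained by expectation maximization and not normalized. The submitters' processing notes also name DESeq2, with version 3.5. The annotation release and the strand setting are not given in the sources used here. One WT vehicle library was left out by the study. The estimated counts, 30.1% of them not whole, were rounded.

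Of 31245 genes, 26946 with a total of at least 20 were tested and 4299 were left out. One edgeR 4.0.16 quasi-likelihood model (R 4.3.3, TMM factors) held the 6 groups, and an additive model of genotype and exposure gave the PFOA effect over the 3 genotypes and the genotype comparisons. P values are two-sided and Benjamini-Hochberg adjusted over all genes tested. Calls needed an adjusted p under 0.2 and a fold over 2. CPM used the TMM factors, and RPKM divided CPM by union exon length per 1000 bases. Each mouse gave 1 library, and no pair of libraries of a group agreed within sampling noise. The scripts were tested on simulated data. Alternatives were RLE and upper-quartile factors, DESeq2 1.42.0, filters, sex and index covariates, robust estimation, fits of 2 groups, and leaving libraries out.

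The members and lists were chosen with earlier results of these data known. Named were the 3 highest collagens of each class by RPKM, the highest and lowest member of each class, every called member, the 3 of smallest p where fewer than 3 were called, and the leading gene of each other list. Members beyond this rule were named after their values were seen. Gene coordinates are those of GENCODE M21, and upstream sequences are from RefSeq.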

Additional observations from a re-analysis of the deposited data

Results flagged for a closer look

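Col5a1, the main chain of type V collagen, moved in opposite directions with PFOA in WT and KI. All 3 WT PFOA libraries were below both WT vehicle libraries, at a log2 fold change of -0.25 (adjusted p = 0.719), and all 3 KI PFOA libraries were above the 3 KI vehicle libraries, at 0.24 (adjusted p = 1). Neither was called. The difference between the 2 effects, tested as an interaction with edgeR, was 0.49 (SE 0.19, unadjusted p = 0.0165, adjusted p = 0.999), which did not pass the adjusted threshold. In KO the log2 fold change was 0.11 (SE 0.12, adjusted p = 0.753), and close to 0 with upper-quartile factors.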

How the results depend on the processing

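For 50 pairs of a collagen and a comparison, which include every pair with a fold change in the text, the alternatives gave 1359 values. Of these 1349 kept their direction and their side of the threshold, and 3 were no longer called (Col6a4 in KO against WT with sex or with the index number as a covariate, and once KO PFOA 155 was left out). Another 6 became called, namely Col7a1 and Col19a1 for PFOA in WT without WT vehicle 107, Col6a5 in KO against WT without KO vehicle 137, Col6a4 in KI against WT without KI PFOA 57, and Col6a4 and Col19a1 in KI against WT without WT vehicle 122 and KO vehicle 137 together. The 1 reversal was Col5a1 for PFOA in KO, at -0.0024 with upper-quartile factors and not called in either fit. Most of the pairs were not called to begin with, so keeping their side meant staying uncalled. The tally does not show how far a value moved. Col23a1 for PFOA in WT counted as kept throughout, with log2 fold changes from -0.84 to -0.15. Collagens called for PFOA in WT numbered 0 to 2 when single libraries were left out, with 2 only without WT vehicle 107. In KO against WT the count was 1 with sex, 1 with the index number, and 1 to 3 over the left-out libraries, with 1 without KO PFOA 155 and 3 without KO vehicle 137, which added Col6a5 (-1.20, adjusted p = 0.190). In KI against WT it was 1 to 2 over the left-out libraries, with 2 without KI PFOA 57, and 3 without WT vehicle 122 and KO vehicle 137 together, which added Col19a1 (2.79) and Col6a4 (1.55). Scaled to protein-coding counts, the mean summed RPKM was 179.8 for fibrillar, 421.7 for basement membrane and 203.6 for other collagens, and with the longest transcript as the length it was 213.4 for fibrillar and 189.4 for other collagens. Leaving out single libraries gave 134.3 to 138.9, 315.7 to 329.8 and 152.9 to 156.9. With upper-quartile factors the median of all genes for PFOA in KO was -0.14 and 19 of 43 collagens were positive, against 25 with TMM. The cause of these shifts was not tested. The median half-width of the 95% interval for collagens of at least 0.5 RPKM was 0.54 in WT, 0.49 in KO and 0.28 over the 3 genotypes on the log2 scale. All KO PFOA libraries share 1 index number, as read from the column names, that no KO vehicle library has. No paired analysis was possible because each replicate number is the number of 1 mouse and no number is shared between groups.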
